A study of Mus musculus and Macaca mulatta with 39 samples.

Results

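Places in the genome of the rhesus macaque fetal cortex were sorted by which of 2 histone marks they carried at 12 weeks after conception (12 pcw). H3K27ac is an acetylation of histone H3 found at promoters and enhancers in use. H3K4me2 is a dimethylation of histone H3 found at promoters and enhancers whether in use or not, so places with H3K4me2 and no H3K27ac are often called poised, meaning marked ahead of use. Acetylation is added and removed by enzymes other than those that methylate lysine 4, and each mark can therefore be gained or lost without the other. In the primate cortex the time between 8 and 12 pcw falls within the production of neurons from progenitor cells that line the ventricles.

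Chromatin immunoprecipitation and sequencing was done on frontal and on occipital cortex at 12 pcw, with 2 biological replicates of each area and both marks from every replicate. One replicate of embryonic cortex at 8 pcw, again with both marks, served as the earlier age. The tissue came from timed pregnancies and was thawed before dissection, and the labels name no treatment or genetic change. Each group mixes all the cell types of its tissue, so that a mark present in few cells and a weak mark in many cells cannot be told apart. The labels give no sex or individual for an animal, and whether frontal and occipital samples of the same number came from 1 animal is not stated in them. The files name called intervals and hold no gene or expression value, so whether a place was in use was not measured here, and the tissue could not be checked against marker genes.

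The 8 lists of called regions at 12 pcw (4 of H3K27ac and 4 of H3K4me2) were read on chromosomes 1 to 4, 9 to 12, 16 and 18, and touching or overlapping regions were merged into loci. This gave 71461 loci, of which 19349 fell into 1 of 3 classes. A locus with both marks was called in at least 3 of the 4 lists of each mark. H3K4me2-only loci were called in at least 3 H3K4me2 lists and in no H3K27ac list, and H3K27ac-only loci the reverse. All lists of the series, mouse included, hold 1556996 regions. Positions below are those of the files, on a rhesus build that the labels and files do not name.

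The lists differ in extent, and this bears on every class. On the 10 chromosomes the H3K27ac lists cover 63.2 to 97.4 Mb with 30424 to 41634 regions. The H3K4me2 lists run from 31.5 Mb with 15727 regions (frontal replicate 1) to 93.4 Mb with 43391 regions (frontal replicate 2). At 8 pcw H3K27ac covers 50.8 Mb and H3K4me2 covers 96.1 Mb. The H3K27ac lists of frontal replicate 2 and occipital replicate 1 end 1.19 to 25.7 Mb before the other lists on 10 chromosomes, and none of those is among the 10 used here. The files give no read number, so the depth is unknown, and how far it sets the lists' extent was not tested.

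Carrying both marks was the main state among the classed loci. A single-mark class allows no call of the other mark, whereas the class with both marks allows a missing list of each mark. Of the 43810 loci called in at least 2 lists, 24461 were in no class. Loci with both marks number 15552, or 80.4% of the classed loci and 21.8% of all loci, and they span 86.8 Mb, 50.9% of the length of all loci. H3K27ac-only loci number 2589 (13.4% of the classed) and span 6.64 Mb. H3K4me2-only loci number 1208 (6.24% of the classed) and span 2.07 Mb. Of the loci with both marks, 10357 (66.6%) were called in all 8 lists, while 302 H3K4me2-only loci (25.0%) and 831 H3K27ac-only loci (32.1%) were called in all 4 lists of their mark. The remaining 52112 loci were in no class, and 27651 of those were called in 1 list, 20535 of them in an H3K27ac list. Of these, 8856 were in frontal replicate 2 and 6154 in occipital replicate 1, the lists that end early on other chromosomes. Frontal replicate 1 held 3078 and occipital replicate 2 held 2447. The order of the single-mark classes rests on the lists. When 1 list was left out the limit stayed at 3 lists, so its mark had to be called in all the remaining lists of that mark. The part of this stricter demand in the falls below was not separated from that of the list. Without occipital H3K27ac replicate 1 the H3K4me2-only loci were 2218 against 1251 H3K27ac-only ones. The H3K27ac-only loci fell to 1076 without frontal H3K27ac replicate 1 and to 1163 without frontal replicate 2, and the H3K4me2-only loci to 311, 362 and 406 without frontal H3K4me2 replicate 2, occipital replicate 1 and occipital replicate 2.

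**Figure D1:**
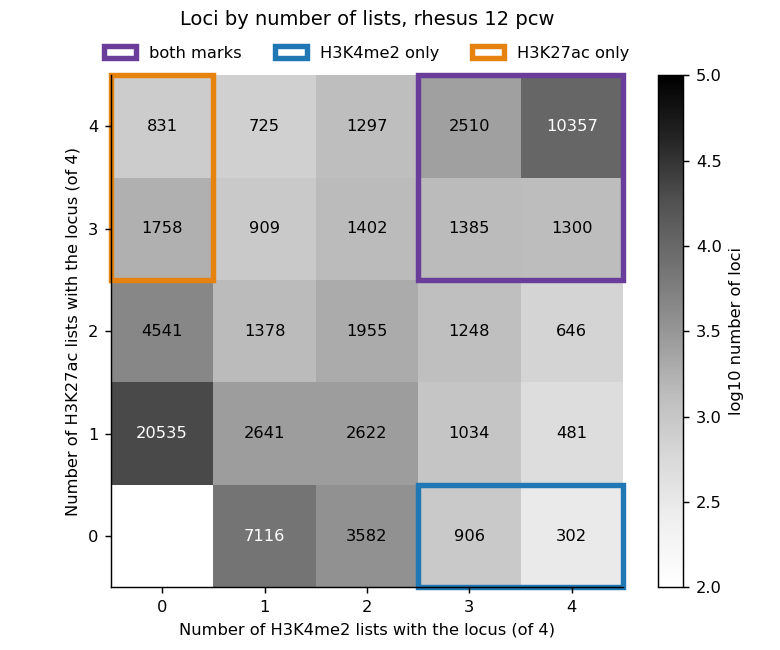
Number of loci by how many of the 4 H3K4me2 lists (horizontal axis) and how many of the 4 H3K27ac lists (vertical axis) called them, with grey on a log10 scale and coloured frames around the 3 classes. The cells beside the empty corner hold 20535 loci in a single H3K27ac list and 7116 in a single H3K4me2 list, and the opposite corner holds 10357 in all 8 lists.

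The values just inside and just outside the limit of 3 lists were as follows. Those with both marks whose less frequent mark was called in 3 lists number 5195, with a median width of 3650 bp. Just outside stand 1894 loci with H3K27ac in 2 lists (median 2375 bp) and 2699 loci with H3K4me2 in 2 lists (median 3225 bp). H3K4me2-only loci in exactly 3 lists number 906 (median 1400 bp), beside 3582 loci in 2 lists (median 1175 bp) and 1515 loci with a call in 1 H3K27ac list (median 1825 bp). H3K27ac-only loci in exactly 3 lists number 1758 (median 1775 bp), beside 4541 in 2 lists (median 1125 bp) and 1634 with a call in 1 H3K4me2 list (median 2600 bp).

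For each mark and class, 1 list was the most frequent to lack loci called in exactly 3, but it was not the same list throughout. Frontal H3K4me2 replicate 1, the shortest list, called 38.4% of the H3K4me2-only loci, while the other H3K4me2 lists called 99.9%, 95% and 91.6%. Of the H3K4me2-only loci in exactly 3 lists, 744 (82.1%) were missing from that list. It called 77.2% of the loci with both marks, against 98.5% to 100.0% in the other H3K4me2 lists. The H3K27ac lists each called 89.3% to 99.1% of the loci with both marks, and frontal replicate 2 was the one missing at 61.8% of the loci with H3K27ac in exactly 3 lists. Among the H3K27ac-only loci, occipital replicate 2 called 63.5%, below the 88.5% to 91.5% of the other H3K27ac lists, and it was the one missing at 53.8% of those in exactly 3 lists. Frontal and occipital lists of a mark overlap in these shares in each class except H3K27ac-only, where both frontal shares (91.5% and 88.7%) stand above both occipital ones (88.5% and 63.5%).

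The class with both marks was wider than either single-mark class. The median width was 4125 bp for both marks (quartiles 2800 and 6425 bp), 2025 bp for H3K27ac only (1350 and 3200 bp) and 1450 bp for H3K4me2 only (1200 and 1925 bp). A locus is the union of the regions of 8 lists, so its width grows with the number of lists that call it, and the covered length within 1 list is the fairer measure. Within a list, the median covered length of a locus with both marks was 2181 ± 307 bp of H3K27ac and 2506 ± 431 bp of H3K4me2 (SD, n = 4 lists each). H3K27ac-only loci had 1038 ± 72.2 bp and H3K4me2-only loci 1062 ± 222 bp (SD, n = 4 lists). The H3K27ac medians by list were 2150, 1825, 2575 and 2175 bp for both marks and 1025, 1125, 1050 and 950 bp for H3K27ac only, in the order frontal 1, frontal 2, occipital 1 and occipital 2. The H3K4me2 medians were 2075, 3075, 2575 and 2300 bp for both marks and 850, 1375, 1025 and 1000 bp for H3K4me2 only, in the same order. The lowest list at loci with both marks thus stood above the highest list at single-mark loci for either mark. No test was made, because membership and covered length come from the same lists.

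**Figure D2:**
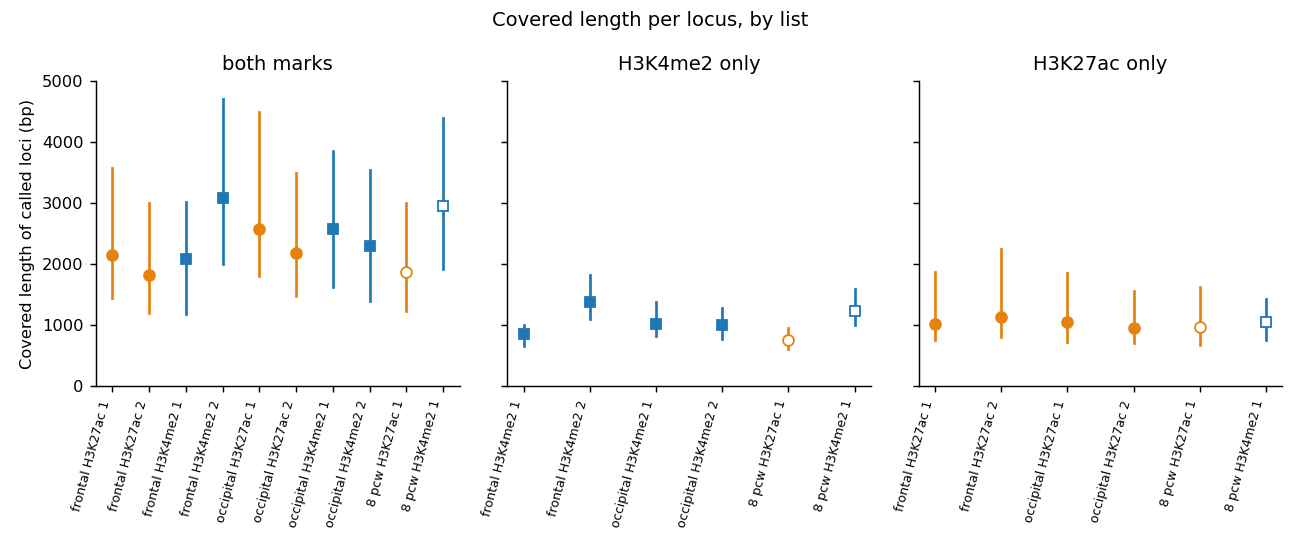
Covered length in bp of the called loci of each class in each list, where points are medians and bars run from the lower to the upper quartile, circles are H3K27ac and squares H3K4me2, and open symbols are the 8 pcw lists, which had no part in the choice of the classes. Medians of loci with both marks run from 1825 to 3075 bp, and those of single-mark loci at 12 pcw from 850 to 1375 bp.

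Most very wide loci had both marks. Of 1866 loci of 10 kb or wider, 1664 had both marks (10.7% of that class), 180 were unclassed, 22 were H3K27ac-only and none was H3K4me2-only. Narrow loci occurred in every class: those under 2 kb made up 9.58% of those with both marks, 49.0% of the H3K27ac-only ones and 76.5% of the H3K4me2-only ones. Part of this width is several separate regions joined by another list. A list placed more than 1 region in 13.2 ± 2.52% of its loci with both marks for H3K27ac and in 10.1 ± 2.05% for H3K4me2, but in 1.04 ± 0.565% of H3K4me2-only loci and 5.00 ± 1.07% of H3K27ac-only loci (SD, n = 4 lists).

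The widest loci with both marks, ranked by the mean covered length of both marks together, show how the lists fill such a domain. At chr12:7955626-8059275 (103650 bp) the H3K27ac lists covered 46950, 25925, 85425 and 52900 bp and the H3K4me2 lists 40575, 102650, 100125 and 54350 bp. Every list called it, and the values of the marks overlap. At chr12:62992976-63066175 H3K27ac covered 40050, 22000, 50650 and 50450 bp and H3K4me2 covered 44275, 71650, 69525 and 68100 bp, whereas at 8 pcw it held 10675 bp of H3K27ac and 27350 bp of H3K4me2. Both 8 pcw values lie below every 12 pcw value of their mark. At chr10:87362726-87438025 H3K27ac was the longer mark, with 67750, 47250, 72325 and 68825 bp against 14275, 46725, 39900 and 31600 bp of H3K4me2.

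Among the widest single-mark loci some were covered evenly by their lists and some were not. The H3K4me2-only locus at chr12:63508001-63513000 had 3550, 5000, 4300 and 4625 bp of H3K4me2 and no H3K27ac region at 12 pcw. The second widest, chr12:88444626-88452550, was uneven, with 875, 7925, 4375 and 2375 bp. At chr4:26301601-26306450 H3K4me2 covered 3075, 4350, 2475 and 2400 bp, the 8 pcw list covered 3350 bp, and there was no H3K27ac at either age. Among H3K27ac-only loci, chr4:33771076-33786600 had 5875, 15525, 2775 and 7550 bp of H3K27ac, with frontal replicate 2 alone filling its whole width. The locus at chr9:57917926-57928325 was the more even one, with 8525, 9450, 7625 and 5750 bp.

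**Figure D3:**
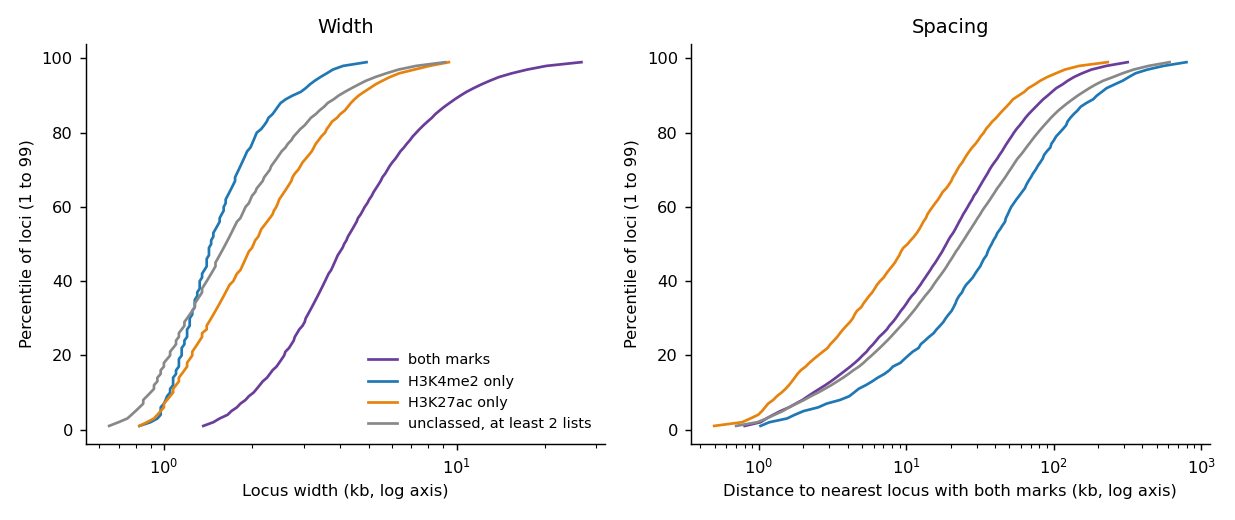
Percentiles 1 to 99 of locus width (left) and of the distance to the nearest other locus with both marks (right), both in kb on log axes, for the 3 classes and for unclassed loci in at least 2 lists. The width curve of loci with both marks, median 4125 bp, lies to the right of the rest, and on the right the H3K27ac-only curve, median 10200 bp, lies nearest to loci with both marks.

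Where a locus had both marks, H3K4me2 was the longer mark at more loci than H3K27ac in each of the 4 pairs of lists from 1 tissue and replicate, by a margin that varied widely. At the median locus 91.8% of the H3K27ac length lay within H3K4me2 in frontal replicate 1, 100% in frontal replicate 2, 88.4% in occipital replicate 1 and 100% in occipital replicate 2. In the same order 84.9%, 52.9%, 88.0% and 79.7% of the H3K4me2 length lay within H3K27ac. The H3K27ac stretch was the longer one at 45.5% of these loci in frontal replicate 1, 22.2% in frontal replicate 2, 49.0% in occipital replicate 1 and 40.0% in occipital replicate 2. Locus by locus, the median difference (H3K27ac minus H3K4me2) was -100, -1125, -25.0 and -325 bp, below 0 in 4 of 4 pairs. The planned test compared the lists' own median lengths over their called loci, which need not be the same loci for both marks. These medians differed by -325 ± 622 bp (SD, n = 4 pairs), with H3K4me2 longer in frontal replicate 2 and occipital replicate 2, equal in occipital replicate 1 and shorter in frontal replicate 1. An exact two-sided permutation test within pairs gave p = 0.500, where 4 pairs can reach no lower than 0.13. Over the loci called in all 8 lists the difference was -719 bp (exact p = 0.13), and with means over loci in place of medians it turned to 285 bp (exact p = 0.625).

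The classes differed at 8 pcw, an age that had no part in choosing them. Those with both marks at 12 pcw were mostly in that state already: at 8 pcw 12683 of 15552 (81.6%) had both marks, 2227 (14.3%) had H3K4me2 without H3K27ac, 77 (0.495%) had H3K27ac alone and 565 (3.63%) had neither. H3K4me2-only loci were mostly in their state too, with 867 of 1208 (71.8%) carrying H3K4me2 alone, 99 (8.20%) carrying both, 1 carrying H3K27ac alone and 241 (20.0%) carrying neither. H3K27ac-only loci were the most divided. Of 2589, 799 (30.9%) had both marks at 8 pcw, 258 (9.97%) had H3K4me2 alone, 497 (19.2%) had H3K27ac alone and 1035 (40.0%) had neither. Among all loci called in at least 2 lists, the 8 pcw list of H3K27ac touched 45.7% and that of H3K4me2 66.6%, and neither touched 29.7%. There was 1 list per mark at 8 pcw, so these shares have no replicate error.

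The order of the classes held under each other way of choosing them. H3K27ac at 8 pcw was found at 82.0% of loci with both marks, 50.1% of H3K27ac-only loci and 8.28% of H3K4me2-only loci, and this order held in 14 of 14 alternatives. H3K4me2 at 8 pcw was found at 95.9%, 40.8% and 80.0% of the same classes, with H3K4me2-only loci above H3K27ac-only ones in 14 of 14. The share of H3K4me2-only loci with H3K27ac at 8 pcw rose from 8.28% to 14.4% when occipital H3K27ac replicate 1 was left out of the choice. It was 14.8% without both early-ending H3K27ac lists and 23.0% with an equal number of the widest regions from each list.

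**Figure D4:**
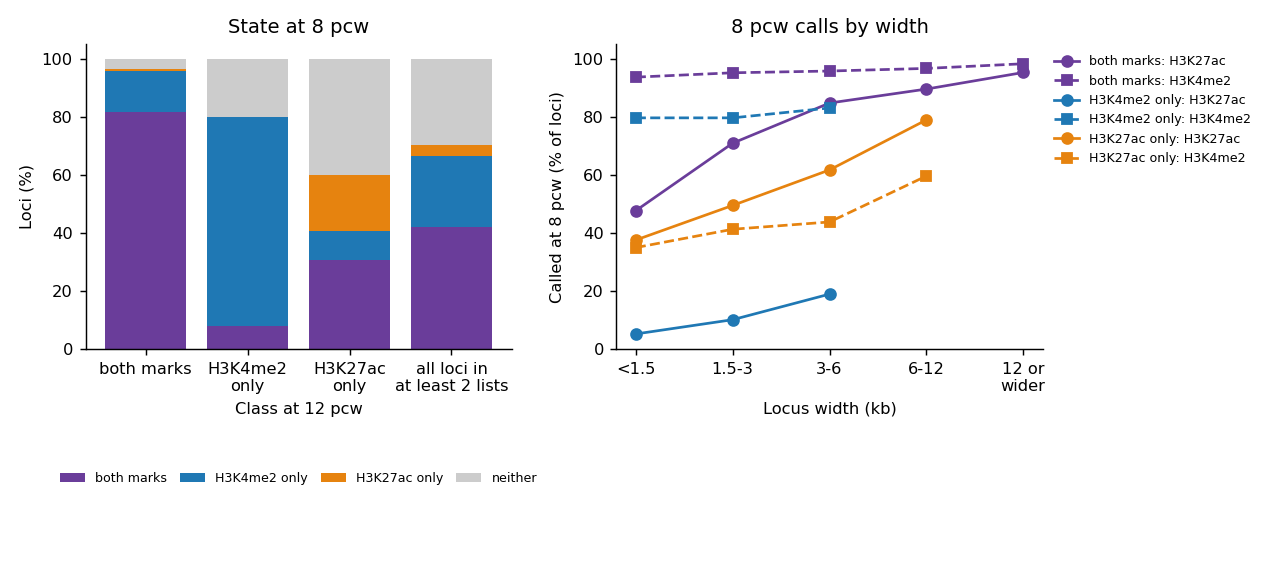
Left, percentage of loci of each 12 pcw class, and of all loci in at least 2 lists, in each state at 8 pcw. Right, percentage of loci called at 8 pcw by locus width in kb, circles and solid lines for H3K27ac and squares and dashed lines for H3K4me2, without bins of fewer than 20 loci; the H3K27ac line of loci with both marks climbs from 47.7% to 95.2%, and their H3K4me2 line stays between 93.6% and 98.2%.

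Width and earlier acetylation went together. Among loci with both marks, H3K27ac was called at 8 pcw in 47.7% of the 346 loci under 1500 bp, 70.9% from 1500 to 3000 bp, 84.7% from 3000 to 6000 bp, 89.5% from 6000 to 12000 bp and 95.2% of the 1121 loci of 12000 bp or more. The H3K4me2 share moved far less, from 93.6% to 98.2% over the same bins. H3K27ac-only loci went from 37.6% to 78.9% over the 4 bins below 12000 bp, and all 10 wider ones were called. H3K4me2-only loci went from 5.30% under 1500 bp to 10.2% and then 19.0% from 3000 to 6000 bp, and none of the 6 wider loci was called. A wider locus offers more bases to touch, and its part in these shares was not tested. Of the loci with both marks, those that had H3K4me2 alone at 8 pcw had a median width of 2875 bp, those with neither mark 3550 bp and those with both 4400 bp.

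The same held inside the H3K4me2-only class when length was read from each 12 pcw list. In frontal replicate 1 the median H3K4me2 length was 888 bp at loci with H3K27ac at 8 pcw and 850 bp at loci without. It was 1538 against 1350 bp in frontal replicate 2, 1125 against 1000 bp in occipital replicate 1 and 1212 against 1000 bp in occipital replicate 2. The loci with earlier acetylation were longer in 4 of 4 lists, by 141 ± 78 bp (SD, n = 4). They numbered 46, 100, 91 and 92 in these lists, in the same order. All 4 lists read 1 split of the same loci by 1 list of 8 pcw, so they are not independent readings of it. Whether a longer stretch is simply touched more often was not tested. The exact two-sided permutation test gave p = 0.13, the smallest that 4 lists allow, so the design could not pass 0.05.

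How much of the change between ages exceeds the change between lists of 1 age was read by choosing loci without counting 1 list. That left-out list was then read beside the 8 pcw list. The loci stayed those merged from all 8 lists, so the left-out list had a part in their bounds and the 8 pcw list had none. What this adds to the share called by the left-out list was not tested. For loci with both marks chosen without an H3K27ac list, the left-out list called 97.5%, 88.6%, 98.9% and 95.9% (frontal 1, frontal 2, occipital 1, occipital 2) and the 8 pcw list called 88.1%, 84.4%, 88.4% and 87.2% of the same loci. The left-out list was above the 8 pcw list 4 times of 4, and it is also the longer list each time. For H3K4me2 at such loci the left-out lists called 76.7%, 100.0%, 99% and 98.1% and the 8 pcw list 96.2%, 99.1%, 99.1% and 98.6%, so that 1 of 4 was above it.

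At H3K4me2-only loci H3K27ac was called more often by a left-out 12 pcw list than by the 8 pcw list. Loci chosen without an H3K27ac list, with no call in the other 3, were called by the left-out list in 9.38%, 9.04%, 43.8% and 21.4% of cases, in the order above. The 8 pcw list called 9.23%, 8.51%, 13.9% and 8.59% of the same loci. The left-out 12 pcw list was above the 8 pcw list 4 times of 4, with the frontal lists close to it. Each left-out list is also the more extensive one, with 63.2 to 97.4 Mb against 50.8 Mb, so age and extent cannot be told apart here. The highest value belongs to occipital replicate 1, the most extensive H3K27ac list with 97.4 Mb. The H3K4me2 of these loci was found again by the left-out list in 28.9%, 99.7%, 83.4% and 74.9% and by the 8 pcw list in 81.3%, 94.1%, 95.3% and 84.6%.

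For H3K27ac-only loci the other mark went the other way. Chosen without an H3K4me2 list, they had H3K4me2 in the left-out list in 0.956%, 31.8%, 3.90% and 10.4% of cases. The 8 pcw H3K4me2 list called 41.2%, 48.1%, 41.1% and 44.9% of the same loci and was above the left-out list 4 times of 4. The 8 pcw list is also the most extensive H3K4me2 list. The nearest to it in extent, frontal replicate 2 with 93.4 Mb against 96.1 Mb, called 31.8% of loci of which the 8 pcw list called 48.1%. Their H3K27ac was found again in 79.0%, 74.0%, 73.5% and 46.8% by the left-out lists and in 63.3%, 59.6%, 61.7% and 55.0% by the 8 pcw list. These lists give 1 value an age, and the difference between ages was not tested.

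**Figure D5:**
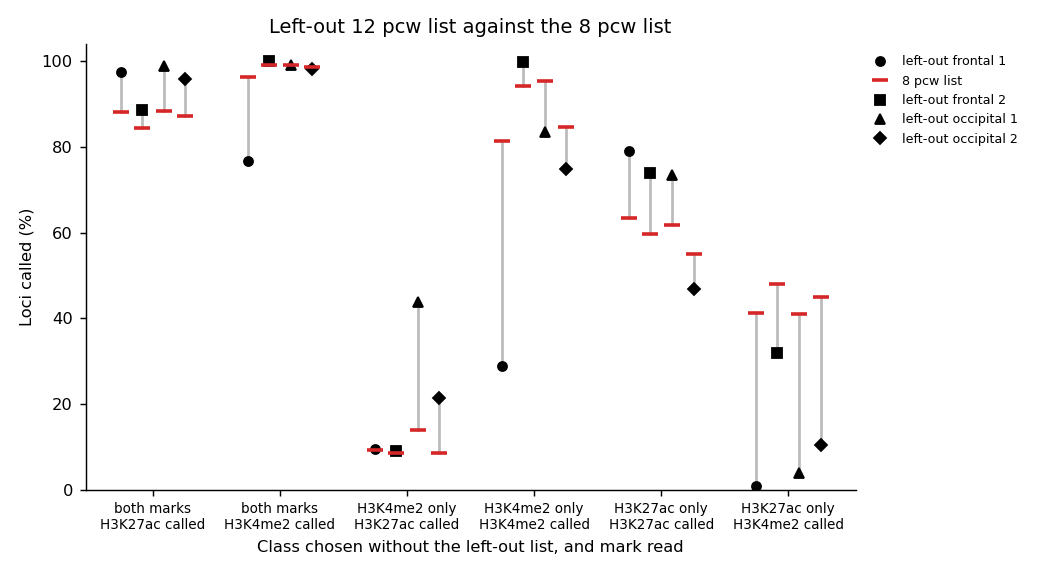
Percentage of loci called in the 12 pcw list left out of the choice (black, symbol by list) and in the 8 pcw list of the same mark (red dash), for each class and mark, with grey lines joining values over the same loci. The H3K4me2 of H3K27ac-only loci is the set with each left-out list, 0.956% to 31.8%, below its 8 pcw value, 41.1% to 48.1%.

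Loci of each path were named by their mean H3K4me2 length at 12 pcw, or H3K27ac length for the H3K27ac-only class. The H3K4me2-only locus at chr12:63508001-63513000 had 700 bp of H3K27ac and 4875 bp of H3K4me2 at 8 pcw. The one at chr1:213241376-213245600 had 1100, 2275, 3950 and 4025 bp of H3K4me2 at 12 pcw and 875 bp of H3K27ac with 4225 bp of H3K4me2 at 8 pcw. In both, the earlier acetylated stretch was a small part of the methylated one. The locus at chr2:56488251-56512625 went the other way. It had 14675, 3350, 22075 and 16025 bp of H3K27ac at 12 pcw and none at 8 pcw, where 5950 bp of H3K4me2 was called. At chr12:76303776-76321200 H3K27ac was shorter, with 2800, 1550, 5275 and 2575 bp at 12 pcw and none at 8 pcw, beside 6275 bp of H3K4me2.

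The named loci with both marks at 12 pcw and neither at 8 pcw varied between the 12 pcw lists, as some of those with H3K4me2 at 8 pcw did. At chr2:154623351-154636125 H3K27ac covered 2200, 675, 6225 and 8450 bp and H3K4me2 1075, 11025, 5300 and 2875 bp. At chr3:172852276-172862850 H3K27ac covered 2200 bp, 0, 10575 and 1875 bp, and H3K4me2 covered 1575, 9100, 9375 and 1800 bp. Among H3K27ac-only loci with H3K4me2 at 8 pcw, chr3:3481501-3492150 had 7500, 10500, 3325 and 10150 bp of H3K27ac at 12 pcw. At 8 pcw it had 6900 bp of H3K27ac and 1400 bp of H3K4me2. At chr1:20579951-20593325 the 12 pcw H3K27ac was 5525, 8000, 11225 and 4800 bp, and at 8 pcw 3775 bp of H3K27ac and 1275 bp of H3K4me2 were called.

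In a core of 9498 loci called in all 10 lists, both ages included, the median H3K27ac length at 8 pcw was 1975 bp, against 2325, 1975, 2650 and 2300 bp at 12 pcw. The 8 pcw value equals the lowest 12 pcw list. The H3K4me2 median was 3550 bp at 8 pcw, against 2400, 3750, 3150 and 3025 bp at 12 pcw, and lies within their range.

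The classes also differed in where they lay relative to loci with both marks. The nearest locus with both marks was at a median distance of 10200 bp from an H3K27ac-only locus, 18675 bp from another locus with both marks and 37912 bp from an H3K4me2-only locus. Of the H3K27ac-only loci 33.4% lay within 5 kb, of the loci with both marks 19.8% and of the H3K4me2-only loci 11.4%, while unclassed loci in at least 2 lists stood at 17.7%. More than 100 kb away were 22.1% of the H3K4me2-only loci and 4.17% of the H3K27ac-only ones. This order of the shares within 5 kb held in 13 of 13 alternatives. The H3K27ac-only share fell to between 20.2% and 21.2% when any 1 of frontal H3K4me2 replicate 2, occipital H3K4me2 replicate 1 or occipital H3K4me2 replicate 2 was left out. Each of these choices also asked for H3K4me2 in all the remaining H3K4me2 lists at loci with both marks. The H3K4me2-only share fell to 7.39% without occipital H3K4me2 replicate 2 and to 5.96% with all 4 lists required. With an equal number of the widest regions from each list, the shares within 5 kb were 19.7% (H3K27ac only), 12.7% (both marks) and 5.53% (H3K4me2 only). Distances to genes were not analysed here, since no rhesus annotation was at hand.

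All 3 classes were found on all 10 chromosomes, in proportions that varied between chromosomes. The loci with both marks made up 77.2% (chromosome 9) to 83.1% (chromosome 16) of the classed loci. H3K4me2-only loci ranged from 4.11% on chromosome 10 to 8.43% on chromosome 18, and H3K27ac-only loci were least frequent on chromosome 12, at 11.8%. Chromosome 10 had their highest share, with 319 H3K27ac-only loci beside 1433 with both marks and 75 H3K4me2-only ones. The class with both marks was densest on chromosome 16, at 16.6 per Mb, and least dense on chromosome 12, at 9.32 per Mb.

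Covered length was also tested locus by locus with limma on log2(covered bp + 200), over the 43810 loci in at least 2 lists. A called locus has a Benjamini-Hochberg adjusted p below 0.05. Between the marks, H3K27ac was longer at 2690 loci (6.14% of those tested) and H3K4me2 at 1567 (3.58%), 9.72% in all. Of the 15552 loci with both marks 328 (2.11%) had longer H3K27ac and 1052 (6.76%) longer H3K4me2, and their median log2 difference (H3K27ac minus H3K4me2) was -0.20, beside -0.01 over all loci tested. Of the single-mark classes 780 H3K27ac-only and 289 H3K4me2-only loci were called, which the rule itself brings about. Without regard to the threshold, the 4 lists of one mark were all longer than the 4 of the other at 1551 of the 15552 loci with both marks for H3K27ac and 4434 for H3K4me2. The same count is not given over all loci tested, so it is not read as a trait of this class. The calls were not stable. None was left with tissue and replicate as a block, on all chromosomes, or without any 1 of the H3K27ac lists or either occipital H3K4me2 list. Without frontal H3K4me2 replicate 1 the calls were 2762 for H3K27ac and 4001 for H3K4me2, and without frontal H3K4me2 replicate 2 they were 6214 and 3300.

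Some domains were mostly acetylated. The locus at chr1:6066051-6147025 had 74425, 73725, 74725 and 53450 bp of H3K27ac and 9925, 23150, 15375 and 16575 bp of H3K4me2, a log2 difference of 2.12 (SE 0.32, limma adjusted p = 0.0441). Every H3K27ac value exceeds every H3K4me2 value there, and at 8 pcw H3K27ac was again the longer mark, with 52750 against 38175 bp. At chr4:37289426-37351950 H3K27ac covered 55000, 50200, 61900 and 39975 bp and H3K4me2 5850, 20900, 13600 and 9000 bp. At chr10:70712101-70771425 H3K27ac covered 44675 to 57375 bp and H3K4me2 4750 to 17875 bp.

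Others were mostly methylated. At chr11:93349351-93366075 H3K4me2 covered 12950, 16725, 16225 and 14200 bp and H3K27ac 2850, 4300, 5575 and 3325 bp, a log2 difference of -1.89 (SE 0.24, limma adjusted p = 0.0441). The 8 pcw lists gave 16325 bp of H3K4me2 and 3075 bp of H3K27ac. At chr4:106167401-106186050 H3K4me2 covered 9450 to 18475 bp and H3K27ac 4250 to 9125 bp. At chr1:29335676-29351450 the ranges were 12125 to 15775 bp and 4825 to 6825 bp. All 6 of these loci lost their call with the block, with log2 differences there of 2.12, 2.19, 2.19, -1.89, -1.23 and -1.23.

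Between the areas, H3K27ac was longer in frontal cortex at 1372 of the 43810 loci (3.13%) and in occipital cortex at 481 (1.10%), 4.23% in all, with 2 lists an area. Almost all of these calls (1842, or 99.4%) were loci called in both lists of one area and neither of the other, a pattern that no classed locus can have, since the classes need H3K27ac in at least 3 lists or in none. The 2 lists of 1 area are enough to bring such a locus into the test. The counts are therefore not read as a difference between the areas. Of the loci with both marks 3 were called longer in frontal and 8 in occipital cortex (0.0707% together), and of the H3K27ac-only loci none. An unadjusted limma p below 0.05 was found at 207 of the 2589 H3K27ac-only loci, beside 3845 of the 43810 loci tested. For H3K4me2 no locus was called by limma between the areas (0% of loci; 200 had an unadjusted p below 0.05, and the lowest adjusted p was 0.463); without frontal H3K4me2 replicate 2 there were 327, all longer in occipital cortex. The H3K27ac calls fell to 0 with the replicate number as a block, with a pseudocount of 1000 bp, and without any 1 of the H3K27ac lists or either occipital H3K4me2 list. They also fell to 0 with loci in at least 3 lists, with loci in any list and with covered length scaled to the list total. Without frontal H3K4me2 replicate 1 they were 989 and 527, and without replicate 2 they were 1395 and 834.

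At the 6 named loci with both marks that were called between areas for H3K27ac, the H3K4me2 differences (log2 frontal minus occipital) ran from -0.04 to 0.27 and none was called. At chr1:177404951-177418350 H3K27ac covered 1375 and 975 bp in frontal and 6800 and 8725 bp in occipital cortex (log2 frontal minus occipital -2.54, SE 0.43, limma adjusted p = 0.0346), and the H3K4me2 difference was 0.06 (SE 0.43). At chr10:9960076-9969050 the H3K27ac values were 1925 and 1675 bp against 7075 and 6750 bp, and H3K4me2 covered 2150, 3050, 2575 and 2450 bp. At chr3:20560051-20566175 they were 1575 and 1400 bp against 4850 and 5075 bp. In the frontal direction, chr4:160857776-160868350 had 10000 and 7950 bp against 4150 and 3125 bp, with 2000 to 2125 bp of H3K4me2 in all 4 lists. At chr12:105925176-105929775 the values were 4225 and 4600 bp against 1500 and 1175 bp (log2 1.59, SE 0.28, limma adjusted p = 0.0361). At chr2:97366076-97370250 they were 3625 and 3750 bp against 1550 and 1475 bp. At 8 pcw, H3K27ac covered 8250 bp of the chr4 locus, which lies between its frontal values, and 1475 bp of the chr12 locus, which lies between its occipital ones. At the other named loci the 8 pcw value lay between the areas, with 1750 bp (chr1), 4525 bp (chr10), 1900 bp (chr3) and 2125 bp (chr2). The log2 differences of these 6 loci under the block were 1.59, 1.26, 1.18, -2.54, -1.83 and -1.61, with none past the threshold. Their calls also depend on which other loci were tested. With loci in at least 3 lists the lowest limma adjusted p of any locus was 0.898, and with loci in any list 0.321.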

How the data were processed

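The files that the authors deposited hold called regions as chromosome, start and end, and no score, read count or gene (unit: other, position in bp). Per the labels' protocols, crosslinked tissue was sonicated and precipitated with an antibody to each mark, and per the series' design text the marks of a replicate share an input. The submitters' processing notes name Bowtie 0.12.9, hg19 and mm9, with no role for either build. The sources used here do not give the program that called the regions, its cutoff or the rhesus assembly. In the 10 rhesus lists region starts lie on a grid of 25 bp, the smallest region is 500 bp and the smallest gap 1025 bp. Of the 39 samples of the series 26 have a list, and inputs were not analysed here.

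Regions touching or overlapping in the 8 lists of 12 pcw were merged, and a region of 8 pcw counted when it shared at least 1 bp with a locus. Lists were grouped by the labels. The per-locus test used limma 3.58.1 (lmFit, eBayes with trend) in R 4.3.3, with a mean per tissue and mark, loci in at least 2 lists, 200 bp added before log2, and 4 residual degrees of freedom. The 200 bp understates changes of short loci. Exact two-sided permutation tests ran within lists or pairs, with scipy 1.17.1 (Python 3.11.15, pandas 2.3.3, numpy 2.4.6), and figures were drawn with matplotlib 3.10.9. Replicates are biological per the design text, and with 2 lists a group the p-values measure the spread between these lists. The classes, lists and tests were chosen with earlier results of these data known. Named loci are, for each class, the 3 with the largest mean covered length of the class mark (of both marks together for loci with both) among loci in all 4 lists of the mark or marks; for each 8 pcw state, the 3 with the largest mean H3K4me2 length at 12 pcw (H3K27ac length for the H3K27ac-only class); the 3 largest differences between marks in each direction among called, non-overlapping loci, and the 3 largest area changes in each direction among called class members. Part of them is printed.

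Because the marks of a replicate share an input, tissue and replicate may act as a block between marks. The deviations of the marks correlated across loci at -0.16 in frontal and 0.26 in occipital cortex. Between areas the labels tie the numbers to nothing shared.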

Additional observations from a re-analysis of the deposited data

Results flagged for a closer look

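In 30 sets of 4 values, 1 for each list of a mark at 12 pcw, the list farthest from the rest was measured by its gap to the nearest value over the whole range. It exceeded the 95% limit for 4 values in 6 sets, and chance alone would flag about 1 in 20. The 6 are not independent, since they come from 3 lists. Frontal H3K4me2 replicate 2, the most extensive H3K4me2 list at 12 pcw, held 5436 loci found in no other list, against 217 to 741 in the other H3K4me2 lists. Frontal H3K4me2 replicate 1, the shortest list, called 38.4% of the H3K4me2-only loci and 77.2% of the loci with both marks. It called 76.7% of loci with both marks when it was not counted in the choice. Occipital H3K27ac replicate 2 called 63.5% of the H3K27ac-only loci, and 46.8% when left out of the choice. It has the fewest regions of the H3K27ac lists (30424, against 35099 to 41634), and its 66.6 Mb lie within their 63.2 to 97.4 Mb. What sets these lists apart was not tested.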

How the results depend on the processing

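Of the alternative values of the main results, 147 kept their direction and size or call, 190 moved and 1 reversed. Those kept include counts of 0 that stayed 0, as for most H3K4me2 counts between areas. A share counted as moved when it left a binomial interval over loci, which treats loci as replicates and holds no error between lists. Widths were set against the SD between lists, numbers against a fixed ratio and the exact tests by direction. The orders of the classes by width (13 of 13 alternatives), by distance (13 of 13) and by either mark at 8 pcw (14 of 14 each) held, and the order by number held in 8 of 13. The difference between marks at loci with both (H3K27ac minus H3K4me2) turned from -325 to 285 bp with means over loci. Without the pair of frontal replicate 2 it was -16.7 bp, which counted as kept because its direction was the same. Depth is unknown for every list and limits how firmly an absent mark can be read.

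With at least 2 lists of a mark, loci with both marks had a median width of 3625 bp and 69.0% H3K27ac and 87.7% H3K4me2 at 8 pcw; H3K4me2-only loci numbered 4790, with 5.39% and 50.2%; H3K27ac-only loci numbered 7130, with 1375 bp, 32.3% and 28.6%. With all 4 lists, loci with both marks numbered 10357, with 91.7% and 99.4%. H3K4me2-only loci numbered 302, with 94.4% H3K4me2, and H3K27ac-only loci 831, with 2800 bp, 68.7% and 54.0%. With 15727 of the widest regions from each list, loci with both marks numbered 8232, with 5225 bp, 88.2% and 90.4%. H3K4me2-only loci then had 2450 bp, 23.0% and 66.2%, and H3K27ac-only loci numbered 1212, with 4438 bp, 61.6% and 27.1%. Joining regions up to 1000 bp apart gave H3K27ac-only loci of 2225 bp. Without both early-ending H3K27ac lists (chosen after seeing the data), H3K27ac at 8 pcw was 83.8% at loci with both marks. H3K4me2-only loci then numbered 2380, with 14.8% and 83.8%, and H3K27ac-only loci 1581, with 52.3% H3K27ac.

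Leaving out each list in turn gave 311 to 2218 H3K4me2-only loci with 7.93% to 14.4% H3K27ac and 75.1% to 95.3% H3K4me2 at 8 pcw. It gave 1076 to 3808 H3K27ac-only loci, 2025 to 2400 bp wide, with 49.9% to 63.7% and 41.1% to 52.3%. Loci with both marks had 82.6% to 88.4% and 96.2% to 99.1%. The limit stayed at 3 lists in each case, so the mark with a list left out had to be in all its remaining lists.

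The limma calls moved most. Between marks (H3K27ac longer, then H3K4me2 longer, with the part at loci with both marks in brackets), 1000 bp added gave 500 (157) and 360 (283), joining regions 163 (34) and 60 (36), loci in any list 337 (54) and 111 (43), scaling to the list total 710 and 754 (462), and loci in at least 3 lists 1222 for H3K27ac. All chromosomes gave 0 in each. H3K27ac had 63.2% of the calls, but 48.5% after scaling and 48.1% with equal numbers of regions. Leaving out a list gave 0 to 6214 (0 to 1224) and 0 to 4001 (0 to 2602). Between areas for H3K27ac, 1000 bp added, loci in at least 3 lists, loci in any list and scaling gave 0 in both directions and at loci with both marks. Equal numbers gave 735 frontal calls (1), joining regions 1 frontal call at loci with both marks, and all chromosomes 2323 (1) and 753. Leaving out a list gave 0 to 1395 (0 to 10.0) and 0 to 834 (0 to 76.0), and for H3K4me2 0 to 327 occipital calls. The tissue and replicate block between marks gave 0 calls in either direction, as did the replicate number block between areas for both marks. The areas' H3K27ac deviations of the same number correlated at 0.338 and the H3K4me2 ones at -0.399, and a crossed block for H3K4me2 (added after seeing the data) gave 0 calls. Of the named loci, 64 alternative values between marks and 74 between areas lost the call, with none reversed.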

Other observations

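Around the second-ranked wide locus with both marks lay a group of neighbours, picked out after the named loci had been seen. From chr12:62918426 to 63513000, a span of 595 kb, there were 39 loci, 25 of them in at least 2 lists, with 9 loci with both marks, 4 H3K4me2-only loci and no H3K27ac-only locus. The locus with both marks at its start, chr12:62918426-62927675, had 550 bp, 0, 2375 and 3075 bp of H3K27ac and 0, 8775, 5625 and 6825 bp of H3K4me2 at 12 pcw, and neither mark at 8 pcw. Beside it the H3K4me2-only locus chr12:62930826-62936475 had 0, 5425, 3600 and 5325 bp of H3K4me2 and neither mark at 8 pcw. Frontal replicate 1 lacks H3K4me2 at both.

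The same rule was applied to the 8 lists of E17.5 mouse cortex, frontal and occipital, as a description with no test between species. Of 130157 loci, 35602 had both marks (76.7% of the classed, median width 3650 bp), 2309 were H3K4me2-only (4.97%, 1200 bp) and 8515 were H3K27ac-only (18.3%, 1750 bp). The H3K27ac-only loci of mouse had H3K4me2 in 3.78% to 13.0% of cases in the lists of E11.5 and in 0.998% to 4.17% in those of E14.5, beside 40.8% in the 8 pcw list of rhesus. The ages do not correspond, and the extent of the lists differs.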
